A study of Homo sapiens with 6 samples.

Results

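Transcripts of the epidermal growth factor (EGF) receptor family, of their EGF-type ligands and of the receptor MET were measured by RNA sequencing in H1299, an established human lung carcinoma line. The set holds 10 genes out of the 58336 listed in the tables, picked out by symbol, from a list drawn up with earlier results of these data known: the 4 receptor genes EGFR, ERBB2, ERBB3 and MET and the 6 ligand genes TGFA, HBEGF, NRG1, AREG, EREG and EPGN. In the shCCNB1 group, cells carried a short hairpin RNA against CCNB1, the cyclin B1 gene, in the vector PLVT7, with 3 libraries. In the mock group, cells carried PLVT7 as a mock vector and are labelled WT, also with 3 libraries. All 6 libraries came from stable transfectants selected with puromycin at 1 µg/ml, applied to cells 14 days after confluence, and from medium with 10% serum. The labels do not say whether a group is 1 clone or a pool, and the 3 libraries of a group are not stated to be separate cultures, so each p-value below rests on a spread that may be technical only. The series asks about cyclin B1 in lung adenocarcinoma and the pathways tied to it.

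EGF-type ligands are made as membrane-anchored precursors and are released at the cell surface by metalloproteases. A released ligand binds EGFR or, for neuregulins, ERBB3, and the bound receptor pairs with a second ERBB receptor, of which ERBB2 is the preferred partner and has no known soluble ligand of its own. ERBB3 has little kinase activity and signals through its partner, while MET is the receptor of hepatocyte growth factor (HGF). In lung adenocarcinoma EGFR, ERBB2 and MET are known as oncogenes and as drug targets.

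Depth was 28122665 to 30332989 counts per library. CCNB1 was at 19.9, 29.9 and 16.1 CPM (counts scaled to a common library size, with TMM factors) in shCCNB1 libraries 1, 2 and 3, against 323, 305 and 294 CPM in mock libraries 1, 2 and 3, so every library matched its label, and CCNB1 fell by 3.81 on the log2 scale (SE 0.22, edgeR adjusted p = 0.000215). The shCCNB1 library 2 stood apart from its group. Its log2 CPM over all tested genes correlated at 0.979 and 0.978 with shCCNB1 libraries 1 and 3, and at 0.984 to 0.987 with the mock libraries, against 0.989 between shCCNB1 libraries 1 and 3. Of the lung adenocarcinoma markers, NKX2-1, NAPSA, SFTPB and SFTPC together held 0.658 to 1.11 CPM in shCCNB1 and 0.493 to 0.900 CPM in mock libraries, and the epithelial markers EPCAM and CDH1 had at most 14 and 2 counts in a library, so these defining markers of the labelled cell type were at or near 0. The growth protocol in the labels calls the line mesenchymal. The 5 simple epithelial markers, nearly all of it KRT8 and KRT18, summed to 836 to 1647 CPM in shCCNB1 and 602 to 686 CPM in mock libraries, and the 4 mesenchymal markers, mostly VIM, to 1885 to 3540 CPM in shCCNB1 and 3317 to 3469 CPM in mock libraries. Leukocyte markers had 3 of 4 genes at 0 counts and summed to 0.141 to 0.188 CPM in shCCNB1 and 0.141 to 0.247 CPM in mock libraries. The 4 endothelial markers summed to 2.15 to 2.98 CPM in shCCNB1 and 1.94 to 2.67 CPM in mock libraries, and the 5 fibroblast markers to 0.251 to 0.777 CPM in shCCNB1 and 0.776 to 1.02 CPM in mock libraries. The mesenchymal sums of the groups overlapped, but the shCCNB1 libraries were split. VIM was at 1741, 3331 and 1878 CPM in shCCNB1 libraries 1, 2 and 3, against 3181, 3283 and 3145 CPM in mock libraries 1, 2 and 3. So only shCCNB1 library 2 was not below mock for VIM. Its log2 fold change, shCCNB1 over mock, was -0.47 (SE 0.22, edgeR adjusted p = 0.358). Of the epithelial markers, KRT8 and KRT18 were above mock in every shCCNB1 library, while KRT19, a low transcript, was below mock in every one. Their log2 fold changes, shCCNB1 over mock, were 1.11 (SE 0.23), 0.89 (SE 0.21) and -1.45 (SE 0.51). The edgeR adjusted p-values were 0.105, 0.118 and 0.231, so none passed 0.05. KRT19 had 2 to 19 counts in a library. Over all genes tested, 10.9% were above and 8.84% below mock in every shCCNB1 library. Whether the differences in these markers bear on the receptor and ligand transcripts was not tested.

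Compared per length, as FPKM (counts scaled for exon length and for the library total), MET was the highest transcript of the set in both groups, TGFA, EGFR and HBEGF came next, and AREG, EREG and EPGN were the lowest. In shCCNB1 libraries the order of mean levels was MET (15.0 FPKM), EGFR (8.41), TGFA (7.55), HBEGF (5.25), ERBB2 (3.25), ERBB3 (1.31), NRG1 (0.953), AREG (0.271) and then EPGN and EREG. In mock libraries the order of mean levels was MET (20.6 FPKM), TGFA (16.0), EGFR (7.53), HBEGF (6.86), ERBB2 (3.84), ERBB3 (0.968), NRG1 (0.937), AREG (0.182) and then EPGN and EREG. Neighbours whose library ranges overlapped were EGFR with TGFA and TGFA with HBEGF in shCCNB1 libraries, ERBB3 with NRG1 in mock libraries, and EPGN with EREG in both groups. The FPKM deposited by the authors use the summed exon length of all annotated transcripts, 12521 bases for EGFR and 1648 bases for AREG, so a gene with many unused exons has a lower FPKM than its main transcript would.

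**Figure D1:**
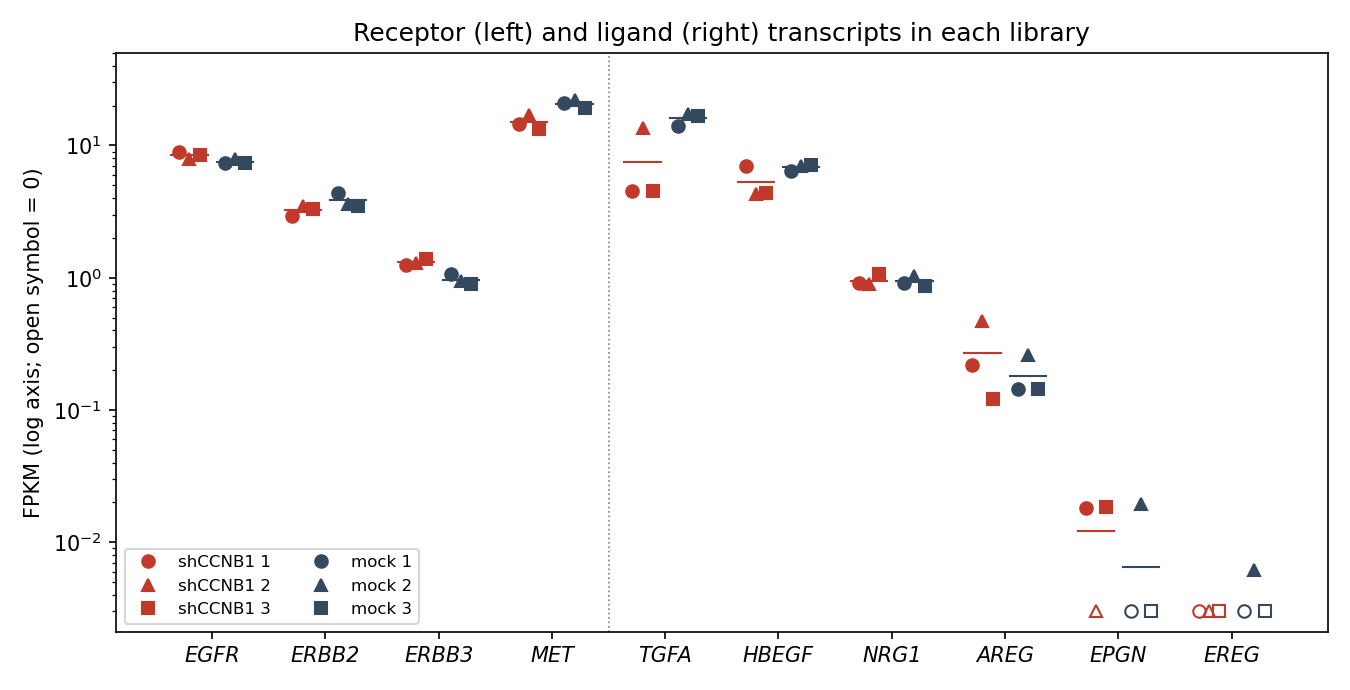
FPKM of the 4 receptor and 6 ligand transcripts in each of 6 libraries, on a log axis, with shCCNB1 libraries in red to the left of mock libraries in dark blue-grey; lines are group means, symbols are library numbers and open symbols stand for 0. MET is highest in both groups, with means of 15.0 and 20.6 FPKM, and TGFA in shCCNB1 libraries 1 and 3 lies at 4.54 FPKM, away from the other 4 libraries.

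The ligand genes at the bottom of that order share a location and a promoter feature. EPGN, EREG and AREG lie next to each other on chromosome 4 in GRCh38 (GENCODE release 29), at 74308473 to 74315307, 74365143 to 74388751 and 74445134 to 74455009, all on the plus strand. RefSeq promoter windows run from 250 bases before to 50 bases after a start, on GRCh38.p14. They were used for 8 of the 10 genes, with 10 windows in all, and NRG1 was not searched. Each of the 3 windows of these ligands held the TATA box letters TATAAA, beginning at -29 in AREG and EPGN and at -32 in EREG, with the start base counted as 0. Among the other windows, the letters were in 1, that of a second EGFR start inside the gene. Searched on both strands, TATAAA was in 11.5% of the 35116 promoter windows in the table. The sequences are printed to set the TATA-type starts of the barely detected ligands beside the starts of TGFA, HBEGF and MET, and they run 5′ to 3′ for 140 bases, from 120 bases before the start. Capitals mark TATAAA, the GC box GGGCGG (in 45.0% of all windows), the cyclic AMP response element TGACGTCA (in 1.85%) and the AP-1 site TGANTCA (in 7.71%), each on either strand; neighbouring GC boxes can overlap.
EPGN, chr4:74308350-74308489, plus strand: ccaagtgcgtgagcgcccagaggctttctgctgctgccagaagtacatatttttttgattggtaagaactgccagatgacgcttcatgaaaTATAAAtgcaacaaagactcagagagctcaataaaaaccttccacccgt
EREG, chr4:74365025-74365164, plus strand: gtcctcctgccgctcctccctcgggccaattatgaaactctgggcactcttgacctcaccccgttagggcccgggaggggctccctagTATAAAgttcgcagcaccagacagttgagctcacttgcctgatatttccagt
AREG, chr4:74445016-74445155, plus strand: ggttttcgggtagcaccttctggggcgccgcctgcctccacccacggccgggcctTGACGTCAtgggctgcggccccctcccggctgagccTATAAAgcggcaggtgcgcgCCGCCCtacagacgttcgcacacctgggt
TGFA, chr2:70553807-70553946, minus strand: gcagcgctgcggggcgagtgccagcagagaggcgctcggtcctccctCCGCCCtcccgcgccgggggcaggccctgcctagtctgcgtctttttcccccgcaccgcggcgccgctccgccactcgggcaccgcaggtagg
HBEGF, chr5:140346584-140346723, minus strand: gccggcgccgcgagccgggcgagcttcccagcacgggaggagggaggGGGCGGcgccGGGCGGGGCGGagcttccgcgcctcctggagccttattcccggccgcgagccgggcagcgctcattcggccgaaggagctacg
MET, chr7:116672076-116672215, plus strand: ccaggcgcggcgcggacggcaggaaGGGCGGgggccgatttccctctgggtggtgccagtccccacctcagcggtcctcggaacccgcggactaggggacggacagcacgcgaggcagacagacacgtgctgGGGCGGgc

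The window of TGFA that lies nearest to its GENCODE start, with 4 GC boxes in its 300 bases, is the one printed, and HBEGF held 5 and MET 3. The other TGFA window held none of the motifs searched. That of ERBB2, also a detected gene, held no GC box and no TATAAA. A match of letters is a description and not a bound site. Expression data alone do not show which start was used.

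AREG, which encodes amphiregulin, was near the limit of detection. It had 11, 22 and 6 counts in shCCNB1 libraries 1, 2 and 3, against 7, 12 and 7 counts in mock libraries 1, 2 and 3, and the groups overlapped. On the log2 scale, shCCNB1 over mock, the fold change was 0.52 (SE 0.55, edgeR adjusted p = 0.682), and it was -0.14 without shCCNB1 library 2, which held the most counts. EREG, the epiregulin gene, had 0 counts in all shCCNB1 libraries and 1 count in mock library 2, which allows at most 0.0185 FPKM in a shCCNB1 library if 3 counts are taken as the limit of a count of 0. EPGN, the epigen gene, had 1, 0 and 1 counts in shCCNB1 libraries 1, 2 and 3, against 0, 1 and 0 counts in mock libraries 1, 2 and 3. The limit covers counting error only. EREG and EPGN were below the filter on low counts, so 8 of the 10 genes were tested, and no fold change is given for these 2. In bulk RNA, a lower level in every cell and expression in fewer cells cannot be told apart.

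Across the 8 tested genes, 0 passed an adjusted p of 0.05 in edgeR with all 6 libraries, against 0.0231% of the 17349 genes tested. The count with DESeq2 was 1 gene, MET, against 3.45% of genes tested there. At an unadjusted p under 0.05 in edgeR there were 4 of the 8 (MET, TGFA, ERBB3 and HBEGF), against 15.0% of all genes. Of the 8, 3 were both under that p and lower in shCCNB1 libraries, against 6.88% of all genes. The CPM of the 2 groups did not overlap for 6 of the 8. As FPKM, which leaves out the TMM factors, the groups overlapped for HBEGF and ERBB2 of these 6. TGFA, HBEGF, MET and ERBB2 were below mock in every shCCNB1 library, as were 8.84% of genes, and EGFR and ERBB3 were above mock in every one, as were 10.9%. Non-overlap gives a two-sided exact permutation p of 0.1, the smallest that 3 against 3 libraries allow, so the single-gene permutation tests cannot pass 0.05. The median log2 fold change was -0.15 over the 8 genes and 0.02 over all genes tested. Because the genes were chosen with earlier results of these data known, counts above the shares over all genes are a description only.

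TGFA, the gene of transforming growth factor alpha, a ligand of EGFR, had the largest difference. Its level was 21.4, 67.5 and 22.6 CPM in shCCNB1 libraries 1, 2 and 3, against 71.8, 85.9 and 84.4 CPM in mock libraries 1, 2 and 3. The shCCNB1 libraries were split: libraries 1 and 3 were at 26.5% and 28.0% of the mock mean and library 2 at 83.6%, just below the lowest mock library. The mean was 37.2 ± 26.3 CPM in shCCNB1 and 80.7 ± 7.71 CPM in mock libraries (SD, n = 3 each), which is -1.12 as a log2 fold change (SE 0.38, edgeR adjusted p = 0.219). Without shCCNB1 library 2, TGFA fell by 1.88 on the log2 scale (SE 0.13, edgeR adjusted p = 0.000108), and over all 15 alternatives its adjusted p ran from 2.3e-10 to 0.517. For TGFA that library lay nearest to mock, so leaving it out widened the gap and narrowed the spread. The fit without it called 13.8% of the 17750 genes tested. Its p-values, here and for the genes below, are therefore no independent support. TGFA lies on the minus strand of chromosome 2 from 70447280 to 70554193. TGFA-IT1, the annotated gene inside one of its introns, had 1 count in all libraries together.

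HBEGF, the gene of heparin-binding EGF-like growth factor, which binds EGFR and ERBB4, had another order among the libraries. It was at 20.2, 13.1 and 13.3 CPM in shCCNB1 libraries 1, 2 and 3, against 20.3, 21.1 and 21.9 CPM in mock libraries 1, 2 and 3. Here shCCNB1 library 1 was level with mock, while libraries 2 and 3 were at 62.1% and 63.1% of the mock mean. As a log2 fold change this was -0.44 (SE 0.18, edgeR adjusted p = 0.304). On the FPKM scale, where libraries are divided by their totals alone, shCCNB1 library 1 (7.05 FPKM) lay inside the mock range of 6.46 to 7.09 FPKM. HBEGF lies on the minus strand of chromosome 5 from 140332843 to 140346631. NRG1, the neuregulin 1 gene, whose products bind ERBB3, was at 9.74 to 12.1 CPM in shCCNB1 and 9.97 to 11.6 CPM in mock libraries, and the groups overlapped. Its log2 fold change of -0.02 (SE 0.15, edgeR adjusted p = 0.964) changed sign with the scaling.

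**Figure D2:**
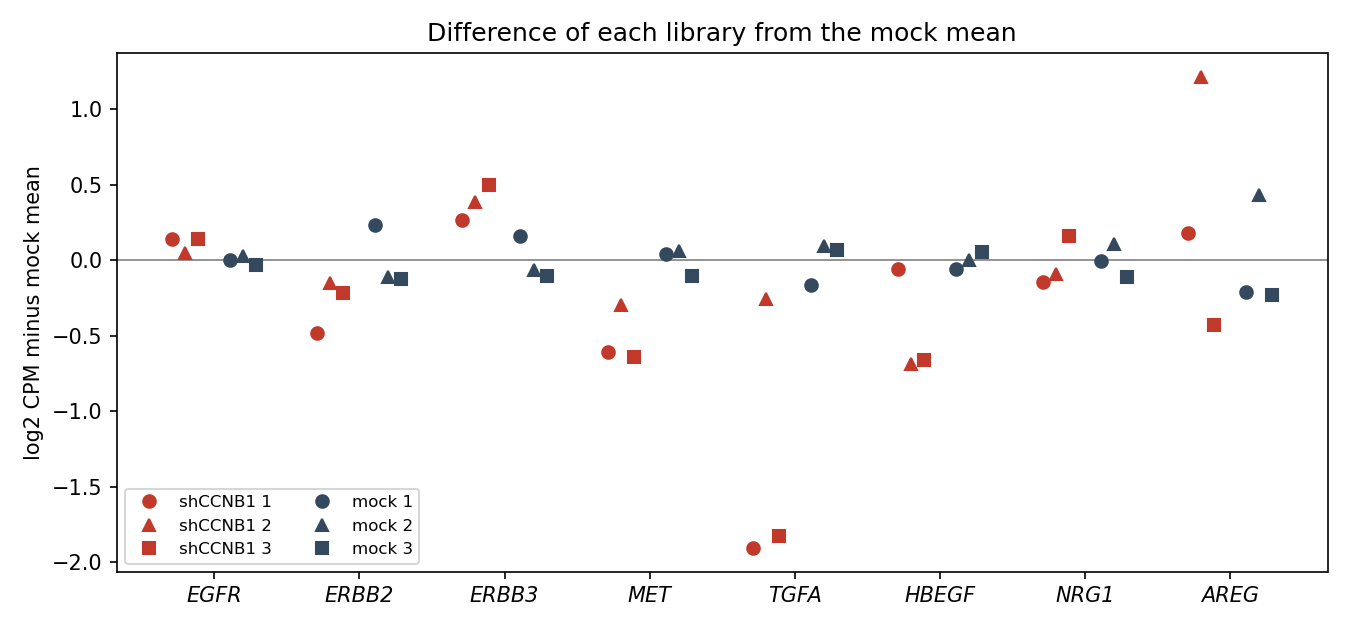
Difference of log2 CPM from the mock mean for the 8 tested transcripts in each library, with shCCNB1 libraries in red to the left of mock libraries in dark blue-grey and symbols for library numbers. For TGFA the difference is -1.91 and -1.83 in shCCNB1 libraries 1 and 3 and -0.25 in library 2, while HBEGF is lowest in shCCNB1 libraries 2 and 3.

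Summed over the 6 ligand genes, the level was 12.7, 19.3 and 10.1 FPKM in shCCNB1 libraries 1, 2 and 3, against 21.4, 25.8 and 24.7 FPKM in mock libraries 1, 2 and 3. TGFA made up 35.7%, 70.5% and 44.8% of that sum in shCCNB1 libraries 1, 2 and 3, against 64.9%, 67.6% and 67.3% in mock libraries 1, 2 and 3. In every library TGFA and HBEGF together held most of the sum. HBEGF made up 55.4%, 22.5% and 43.3% of it in shCCNB1 libraries 1, 2 and 3, against 30.1%, 27.3% and 28.7% in mock libraries 1, 2 and 3. So in shCCNB1 library 1 HBEGF was the leading ligand transcript, with 1.55 times the FPKM of TGFA, in library 3 the 2 were nearly level at 0.967 times, and in library 2 the ratio of 0.319 lay below the mock ratios of 0.404 to 0.464. No test was made of these sums and shares.

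**Figure D3:**
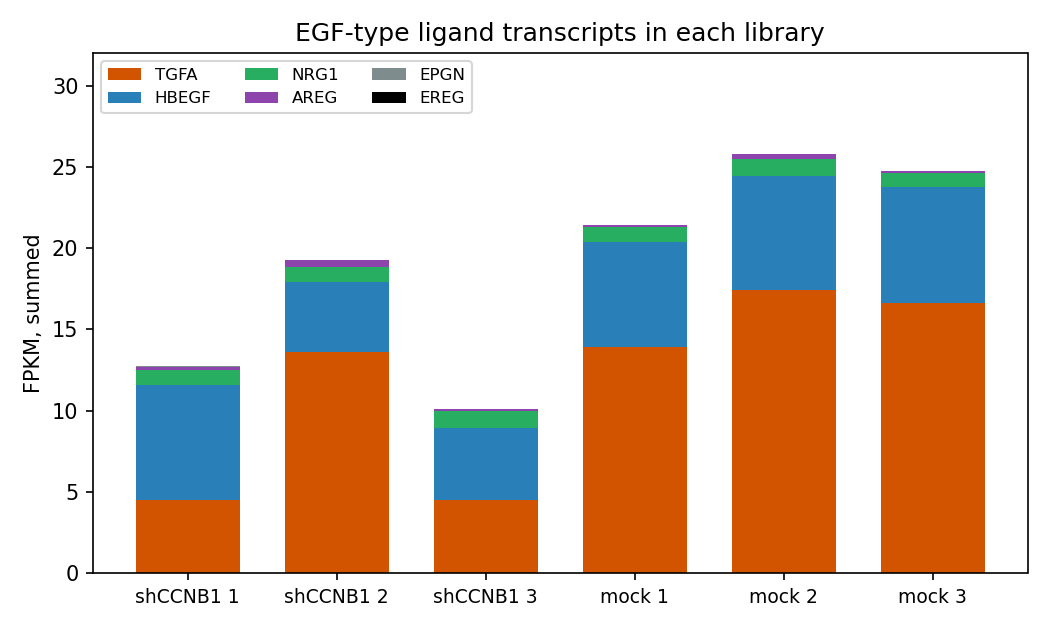
FPKM of the 6 EGF-type ligand transcripts stacked for each library, with shCCNB1 libraries left of mock libraries. The stacks reach 10.1 to 19.3 FPKM in shCCNB1 and 21.4 to 25.8 FPKM in mock libraries, and the TGFA segment is the part that differs most.

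MET was the receptor with the largest difference and the lowest p of the set. It was at 97.1, 120.3 and 94.9 CPM in shCCNB1 libraries 1, 2 and 3, against 152, 154 and 137 CPM in mock libraries 1, 2 and 3. All shCCNB1 libraries lay below all mock libraries, with library 2 the nearest to them, at 81.4% of the mock mean. The mean was 104 ± 14.1 CPM in shCCNB1 and 148 ± 9.07 CPM in mock libraries (SD, n = 3 each), or -0.51 as a log2 fold change (SE 0.13, edgeR adjusted p = 0.146, rank 453 by p among the genes tested). MET fell in DESeq2, with an adjusted p of 0.0192, and in edgeR without shCCNB1 library 2, by 0.63 on the log2 scale (SE 0.11, adjusted p = 0.00610), and over 15 alternatives the adjusted p ran from 0.00610 to 0.431. MET lies on the plus strand of chromosome 7 from 116672390 to 116798386. HGF, its ligand, had at most 3 counts in any library.

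EGFR and ERBB3 were the members above mock in every shCCNB1 library. EGFR was at 106, 99.2 and 106 CPM in shCCNB1 libraries 1, 2 and 3, against 95.9, 98.0 and 93.8 CPM in mock libraries 1, 2 and 3. The shCCNB1 library 2 lay just above the highest mock library. The gap was small, 0.11 as a log2 fold change (SE 0.11, edgeR adjusted p = 0.667). EGFR lies on the plus strand of chromosome 7 from 55019021 to 55211628, and the antisense gene EGFR-AS1, which shares 186 bases with its exons, had 22 counts in all libraries together. ERBB3 was at 10.7, 11.6 and 12.6 CPM in shCCNB1 libraries 1, 2 and 3, against 9.96, 8.50 and 8.27 CPM in mock libraries 1, 2 and 3. ERBB3 had a log2 fold change of 0.39 (SE 0.15, edgeR adjusted p = 0.279). Unlike TGFA and MET, shCCNB1 library 2 was the middle one of its group for ERBB3. ERBB3 lies on the plus strand of chromosome 12 from 56076799 to 56103505.

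ERBB2, the co-receptor of the family, was at 28.7, 36.2 and 34.5 CPM in shCCNB1 libraries 1, 2 and 3, against 47.1, 37.1 and 36.9 CPM in mock libraries 1, 2 and 3. Mock library 1 was high and shCCNB1 library 1 low, and the other 4 libraries lay close together. ERBB2 had a log2 fold change of -0.28 (SE 0.15, edgeR adjusted p = 0.406), and on the FPKM scale shCCNB1 library 2 (3.50) reached the lowest mock library (3.49). The exons of ERBB2, on chromosome 17 from 39687914 to 39730426, share 571 bases with MIEN1 and 194 bases with PGAP3 on the other strand, or 5.53% and 1.88% of its exon length. MIEN1 had 2833 and PGAP3 2017 counts in all libraries together, and without the strand setting the part of the ERBB2 counts that the shared bases touch is unknown. As FPKM, EGFR was 3.03, 2.26 and 2.53 times ERBB2 in shCCNB1 libraries 1, 2 and 3, against 1.68 to 2.18 times in mock libraries. MET held 50.5% to 57.4% of the summed FPKM of the 4 receptors in shCCNB1 and 61.9% to 63.9% in mock libraries. EGFR held 26.6% to 32.2% in shCCNB1 and 21.9% to 23.8% in mock libraries. A share also moves with the sum, which was 26.6 to 29.8 FPKM in shCCNB1 and 30.8 to 34.5 FPKM in mock libraries. EGFR itself was at 7.91 to 8.88 FPKM in shCCNB1 and 7.33 to 7.89 FPKM in mock libraries. No test was made of these ratios and shares.

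The 3′ untranslated regions (UTRs) of the set were searched for the heptamer GTACTAT, which was picked earlier on these same libraries among transcripts lower in the knockdown. It was present in the longest annotated 3′ UTR of EGFR and of MET and in no other member's, against 6.76% of the 13175 genes searched. Since it was picked on these data, the count supports nothing. The sites are shown because one of the carriers had the lowest p of the set and the other was slightly above mock; the heptamer is in capitals, and the UTR is 6011 bases long in EGFR and 2262 bases in MET.
EGFR, plus strand of chromosome 7, 3′ UTR from base 4084: ggtacagctttGTACTATtgaagacacag
MET, plus strand of chromosome 7, 3′ UTR from base 6: tgctaGTACTATgtcaaagcaac

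TGFA, with the largest difference of the set, did not hold these letters in a 3′ UTR of 3579 bases. In the 2 printed sites the base given is the first base of the heptamer, counted from the base after the stop codon.

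Other genes of the pathway were read from the same fit, 55 in 5 lists, of which 46 passed the filter on low counts. None passed the threshold in edgeR with all 6 libraries, against 0.0231% of all genes. At an unadjusted p under 0.05 in edgeR there were 5 of the 46, against 15.0% of all genes. Of the 46, 4 were both under that p and lower, against 6.88% of all genes. DESeq2 called 2, both lower, against 3.45% of genes in either direction. These counts lie near or under the shares over all genes. Of the 46, 27 were lower and 19 higher in shCCNB1 libraries, with a median log2 fold change of -0.05 against 0.02 over all genes tested. The groups did not overlap for 5 genes below mock, against 8.84% of all genes, and for 2 above mock, against 10.9%. Without shCCNB1 library 2, 7 of 47 tested fell and 1 rose, against 7.58% and 6.24% of all genes in that fit, and TGFA and MET were the 2 members of the set that fell there, with none higher.

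Among the other receptors and ligands, NRG2, the neuregulin 2 gene, was at 14.4 ± 2.71 CPM in shCCNB1 and 18.6 ± 2.11 CPM in mock libraries (SD, n = 3 each; adjusted p = 0.351 in edgeR). ERBB4, the fourth receptor of the family, had at most 11 counts in a library and EGF at most 17. Of the genes for the release of ligands, ADAM17, the protease that sheds TGFA and AREG, was at 58.0, 83.4 and 57.5 CPM in shCCNB1 libraries 1, 2 and 3, against 82.4, 92.8 and 93.4 CPM in mock libraries 1, 2 and 3. Its log2 fold change was -0.43 (SE 0.16; adjusted p = 0.258 in edgeR). As for TGFA, shCCNB1 library 2 was close to mock, and without it ADAM17 fell by 0.63 on the log2 scale, with an adjusted p of 0.00648 in edgeR. RHBDF2, which encodes the ADAM17 cofactor iRhom2, was at 23.8, 44.7 and 30.7 CPM in shCCNB1 libraries 1, 2 and 3, against 48.8, 38.1 and 42.9 CPM in mock libraries 1, 2 and 3, with library 2 inside the mock range, and without that library it fell by 0.67 on the log2 scale (edgeR adjusted p = 0.0212). ADAM10, which sheds EGF and betacellulin in mouse cells, was at 158 ± 24.7 CPM in shCCNB1 and 169 ± 15.1 CPM in mock libraries (SD, n = 3 each). ADAM12, a protease of the same family, rose without shCCNB1 library 2 (log2 fold change 1.52, edgeR adjusted p = 0.0325). It was a low transcript, with 37, 5 and 46 counts in shCCNB1 libraries 1, 2 and 3, against 20, 11 and 9 counts in mock libraries 1, 2 and 3. SPINT2, an inhibitor of the proteases that activate HGF, was at 6.17 ± 1.14 CPM in shCCNB1 and 5.90 ± 0.803 CPM in mock libraries.

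Of the receptor-proximal genes, SHC1, an adaptor that binds phosphorylated receptors, was at 230.5, 241 and 273 CPM in shCCNB1 libraries 1, 2 and 3, against 368, 314 and 336 CPM in mock libraries 1, 2 and 3. The groups did not overlap and shCCNB1 library 2 lay with its group. For SHC1 the log2 fold change was -0.45 (SE 0.13, edgeR adjusted p = 0.159), and it fell in DESeq2, with an adjusted p of 0.0341. PIK3R1, the regulatory subunit of PI3-kinase, was at 30.9 ± 3.39 CPM in shCCNB1 and 38.6 ± 1.05 CPM in mock libraries, and the adaptor GRB2 at 137 ± 10.1 CPM in shCCNB1 and 162 ± 10.3 CPM in mock libraries (SD, n = 3 each), with adjusted p-values of 0.286 and 0.379 in edgeR. ERRFI1, the gene of the feedback inhibitor MIG6, which binds the EGFR kinase, was at 713, 1344 and 706 CPM in shCCNB1 libraries 1, 2 and 3, against 1375, 1416 and 1660 CPM in mock libraries 1, 2 and 3. As for TGFA, shCCNB1 libraries 1 and 3 were far below mock and library 2 just below it. The log2 fold change of ERRFI1 was -0.69 (SE 0.24, edgeR adjusted p = 0.226). ERRFI1 fell in DESeq2 at the edge of the threshold, with an adjusted p of 0.04998, and in edgeR by 1.07 on the log2 scale without shCCNB1 library 2 (adjusted p = 0.000777 in edgeR). CBL, the ubiquitin ligase of activated EGFR and MET, was at 129 ± 29.8 CPM in shCCNB1 and 162 ± 10.3 CPM in mock libraries, and RAB11A, a GTPase of recycling endosomes, at 203 ± 5.63 CPM in shCCNB1 and 169 ± 7.19 CPM in mock libraries (SD, n = 3 each).

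**Figure D4:**
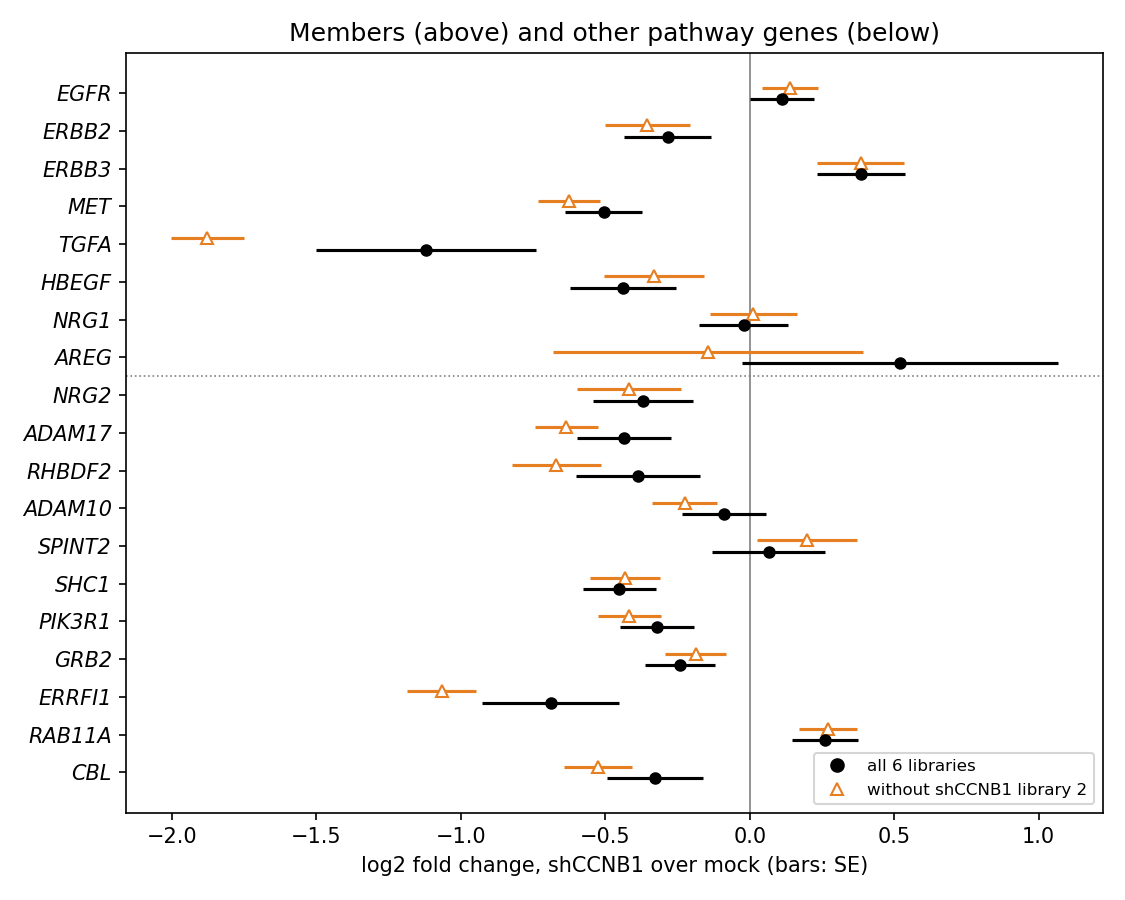
Log2 fold change of shCCNB1 over mock, with SE, for the 8 tested members (above the dotted line) and 11 other pathway genes (below), from all 6 libraries (black) and without shCCNB1 library 2 (orange). TGFA moves most between the 2 fits, -1.12 against -1.88, and AREG, with 6 to 22 counts a library, next, at 0.52 against -0.14. Of the other pathway genes, ERRFI1 lies at -0.69 against -1.07.

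Genes whose log2 CPM followed a member most closely over the 6 libraries were looked up among 11276 genes with a mean of at least 5 CPM. For TGFA these were FAM3C, MON1B and TMEM200A, with Pearson correlations of 0.999, 0.999 and 0.998, and 469 genes lay above 0.95. For MET they were ITPKB, EPHA7 and HFE, at 0.996, 0.996 and 0.995, and for EGFR they were PCTP, RBBP4 and TPD52L1, at 0.993, 0.992 and 0.989. Above 0.95 lay 245 genes for MET and 91 for EGFR. The points are 6 libraries that share the 2 groups and the position of shCCNB1 library 2, and the values are a description.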

How the data were processed

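Total RNA from 6 libraries of H1299 cells was sequenced on an Illumina NovaSeq instrument after library preparation with a NEBNext Ultra RNA kit, per the labels' protocols. The authors deposited 2 tables, of raw counts and of FPKM for each gene, as the file headers give them. HISAT2 2.1.0, featureCounts 2.0.3, bcl2fastq 2.20, DESeq2 and the build GRCh38.p13 are named in the submitters' processing notes; strand setting, annotation release and the treatment of multi-mapping reads are not given in the sources used here. The deposited FPKM equal the count over exon length and library total, with the exon length of GENCODE release 29 for all 10 genes.

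Counts were tested across all genes with edgeR 4.0.16 (R 4.3.3): filterByExpr, TMM scaling, quasi-likelihood F test on group, Benjamini-Hochberg adjustment over all 17349 genes tested, threshold 0.05. The common coefficient of variation was 17.6%. SEs were taken as the fold change on the log2 scale divided by the root of F, and a prior count of 2 was used in log2 CPM. Alternatives were DESeq2 1.42.0, 3 other scalings, 2 other filters, limma 3.58.1 on log2(FPKM + 1) and log2(FPKM + 0.1), a replicate block and leaving out each library. The tests were tried on simulated counts of independent libraries, with planted changes shared by all shCCNB1 libraries. The position of shCCNB1 library 2 was not simulated, so the trial does not cover it. Every pair of libraries differed by more than sampling noise (chi-square per degree of freedom at least 12.8). Columns of other samples numbered 0.

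Members and lists were chosen with earlier results of these data known. Pathway genes named are, per list, up to 3 with the smallest p and, in the higher group, at least 5 CPM on average. Outside that rule, ADAM12, BTC, ERBB4, EGF and HGF were named after their values were seen. Promoter windows are RefSeq's (GRCh38.p14), and 3′ UTRs come from GENCODE release 29 basic protein-coding transcripts. No window was used for ERBB3 and NRG1. Searches and plots were made in Python 3.11.15 (pandas 2.3.3, matplotlib 3.10.9). The level of 1 marker gene of the line is not reported here.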

Additional observations from a re-analysis of the deposited data

How the results depend on the processing

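The number of genes called in edgeR was 4 and depended on the setting: 568 in DESeq2, 1077 with no filter on low counts, 162 with the replicate block, 2 with library totals alone and 1 with limma on log2(FPKM + 0.1). Leaving out 1 library gave between 1 and 2453 genes, the highest without shCCNB1 library 2 and 1 when any other single library was left out. The number of members called, 0 of 8, was 1 in DESeq2 (MET), 2 with no filter (MET and TGFA), 1 with the replicate block (TGFA, log2 fold change -1.33, adjusted p = 0.0204 in edgeR), and 0 to 2 with 1 library left out. The number of other pathway genes called, 0, was 2 in DESeq2 and 2 with no filter (ERRFI1 and SHC1 in both), and 0 to 8 with 1 library left out. The replicate numbers are not stated to pair the libraries. Deviations of same-numbered libraries correlated at -0.19, 0.11 and 0.07 over all genes, and those of differently numbered libraries at -0.35 to 0.30.

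CCNB1 kept its direction and its call under all 15 alternatives (log2 fold change -4.09 to -3.63). EGFR and ERBB3 stayed above 0 and ERBB2, HBEGF, MET and TGFA below 0 under all 15, with TGFA from -1.88 to -0.87. Without shCCNB1 library 1 HBEGF was at -0.70 (-0.44 with all 6) and EGFR at 0.070 (0.11 with all 6), and without mock library 1 ERBB2 was at -0.16 (-0.28 with all 6). NRG1 (-0.02) turned to 0.030 with upper-quartile scaling, 0.025 with library totals, 0.012 and 0.021 with limma at pseudocounts of 1 and 0.1, and ranged from -0.12 to 0.034 with 1 library left out. AREG (0.52) ranged from -0.14 to 0.86 with 1 library left out. The cause of these shifts was not tested. No scaling moved the median of all genes by over 0.1 on the log2 scale. With 6 to 22 counts per library, AREG cannot show a difference of moderate size at this depth.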

Other observations

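The genes around the barely detected ligands on chromosome 4 were not uniformly low. CXCL2, a chemokine gene that lies before EPGN, was at 163 to 277 FPKM in shCCNB1 and 149 to 193 FPKM in mock libraries, and MTHFD2L, which lies between them, at 0.856 to 1.26 FPKM in shCCNB1 and 0.841 to 1.23 FPKM in mock libraries. BTC, the betacellulin gene on the other side of AREG, was at 0.476 to 0.552 FPKM in shCCNB1 and 0.300 to 0.556 FPKM in mock libraries, so it was above AREG per length in all 6 libraries.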
